A study of Mus musculus with 2 samples.

Results

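The mammalian BAF complex is a chromatin remodelling machine that moves nucleosomes with the energy of ATP, and it is built from a fixed core plus positions that related proteins can fill. In dividing neural progenitors some positions are filled by the products of Actl6a, Phf10, Dpf2 and Ss18. In postmitotic neurons these are known to be replaced by the products of Actl6b, Dpf1, Dpf3 and Ss18l1. The ATPase of the complex is the product of either Smarca4 or Smarca2. These 10 genes, 4 neuronal, 4 progenitor and 2 for the ATPases, were taken by name from the 43346 mouse gene rows measured, and all 10 were found.

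The tissue was neural tube of the B6NCrl mouse strain at embryonic day 14.5, untreated and with no altered allele named in the labels. A single group of 2 libraries was sequenced, each from 10 ng of total RNA. By its label each library came from the neural tube of a first pup, with a different dam for replicate 1 and replicate 2, although the sex entry names pooled males and females. Levels are in TPM, a unit scaled for transcript length and for the size of the library, so that different genes of a library can be set side by side. No condition is contrasted. A two-sided exact test on 2 libraries cannot give a p below 0.5, so none is printed, and values are given per library and as mean ± SD (n = 2).

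Gene rows summed to 32255363 expected counts in replicate 1 and 25428747 in replicate 2. Of 21474 protein-coding gene rows 13047 reached 1 TPM in both libraries. All 15 postmitotic neuron markers passed 1 TPM in both libraries (summed 8171 in replicate 1 and 8103 in replicate 2), led by Tubb3 and Stmn3. Of 14 neural progenitor markers 12 did (2483 and 2718), led by Fabp7 and Vim, while Sox1 and Sox3 were under 1 TPM in both. Most of that progenitor sum was Fabp7, at 1772 TPM in replicate 1 and 1812 TPM in replicate 2, and the list median was 16.44 and 21.465 TPM. The 12 cell cycle genes summed to 233.85 and 301.38 TPM. Tissue around the tube was unequal. Meninges and fibroblast markers summed to 58.3 TPM in replicate 1 and 1069 in replicate 2, all 11 of them higher in replicate 2, dorsal root ganglion markers to 34.2 and 189.7, and Schwann cell markers to 15.4 and 50.2. Endothelial markers summed to 91.3 and 207 TPM and microglia and macrophage markers to 90.1 and 156. Skeletal muscle markers summed to 35.5 and 17.7 TPM and erythroid markers to 10950 and 9338. None of these lists had a member at 0 in both libraries, and the Schwann cell marker Cdh19 was listed at 0 in replicate 1.

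**Figure D1:**
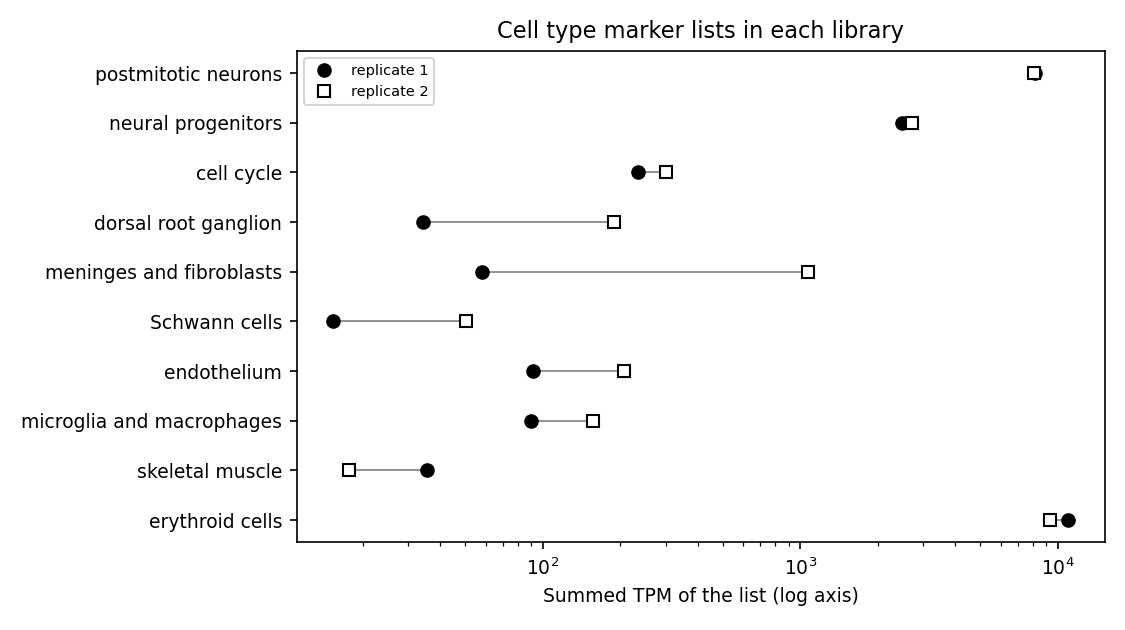
Summed TPM (log axis) of 10 marker lists, with filled circles for replicate 1 and open squares for replicate 2. The neuron list lies at 8171 in replicate 1 and 8103 in replicate 2, and the progenitor list, most of it Fabp7, at 2483 and 2718. The meninges and fibroblast list lies at 58.3 and 1069.

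The neuronal subunit genes were led by Actl6b and Dpf1, which lay far above the other 2. All 10 are protein-coding genes, with spans given on GRCm38. Actl6b (chr5:137553517-137569582), which encodes the neuronal actin-related subunit, had 179.69 TPM in replicate 1 and 161.37 TPM in replicate 2, a mean of 170.5 ± 12.95. Dpf1 (chr7:29303951-29318243), a zinc finger subunit that binds modified histone tails and is found mainly in neurons, had 176.23 and 152.91 TPM, a mean of 164.6 ± 16.5. These means exceeded those of 95.94% and 95.75% of 21474 protein-coding gene rows. Ss18l1 (chr2:180042509-180070201), the neuronal counterpart of Ss18 with a known part in dendrite growth, had 45.75 and 48.05 TPM (46.9 ± 1.63). Dpf3 (chr12:83213745-83487716), a relative of Dpf1 that is also known from heart and skeletal muscle, was the lowest neuronal member at 22.90 and 16.42 TPM (19.7 ± 4.58). Dpf1 was 7.70 times Dpf3 in replicate 1 and 9.31 times in replicate 2.

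The progenitor subunit genes were all expressed as well, each below Actl6b and Dpf1, while Dpf2 and Actl6a had higher means than Ss18l1 and Dpf3. Dpf2 (chr19:5896516-5913010), the most widely expressed of the Dpf genes, had 67.07 TPM in replicate 1 and 83.04 TPM in replicate 2, a mean of 75.1 ± 11.3. Actl6a (chr3:32706298-32726973), the actin-related subunit of dividing cells, had 45.27 and 59.60 TPM (52.4 ± 10.1). Ss18 (chr18:14624198-14682914), a subunit without a DNA-binding domain of its own, had 29.32 and 46.25 TPM (37.8 ± 12.0). Phf10 (chr17:14945009-14961273), whose product is needed for progenitor division and is also a subunit of the related PBAF complex, had the lowest mean of the 10, at 17.14 and 17.76 TPM (17.45 ± 0.438), although Dpf3 was below it in replicate 2. Actl6a, Dpf2 and Ss18 were lower in replicate 1 than in replicate 2, and Phf10 was nearly level.

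The ATPase genes lay close together when all transcripts were counted. Smarca4 (chr9:21616169-21704230) had 109.08 TPM in replicate 1 and 124.52 TPM in replicate 2 (116.8 ± 10.9), and Smarca2 (chr19:26605050-26778322) had 104.93 and 105.82 TPM (105.4 ± 0.629). Ordered by mean, the genes ran Actl6b, Dpf1, Smarca4, Smarca2, Dpf2, Actl6a, Ss18l1, Ss18, Dpf3 and Phf10. The ranges over the libraries overlapped between Actl6b and Dpf1, between Actl6a and Ss18l1, between Ss18l1 and Ss18 and between Dpf3 and Phf10. Within a library, Actl6b was above Dpf1 and Ss18l1 above Ss18 both times. Actl6a and Ss18l1 changed places between the libraries, as did Dpf3 and Phf10, so their order is not resolved. For Actl6b with Dpf1 and Ss18l1 with Ss18, the agreement rests on 2 libraries only. The other neighbouring ranges did not overlap. In bulk tissue, fewer cells of a type and less RNA per cell cannot be told apart.

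**Figure D2:**
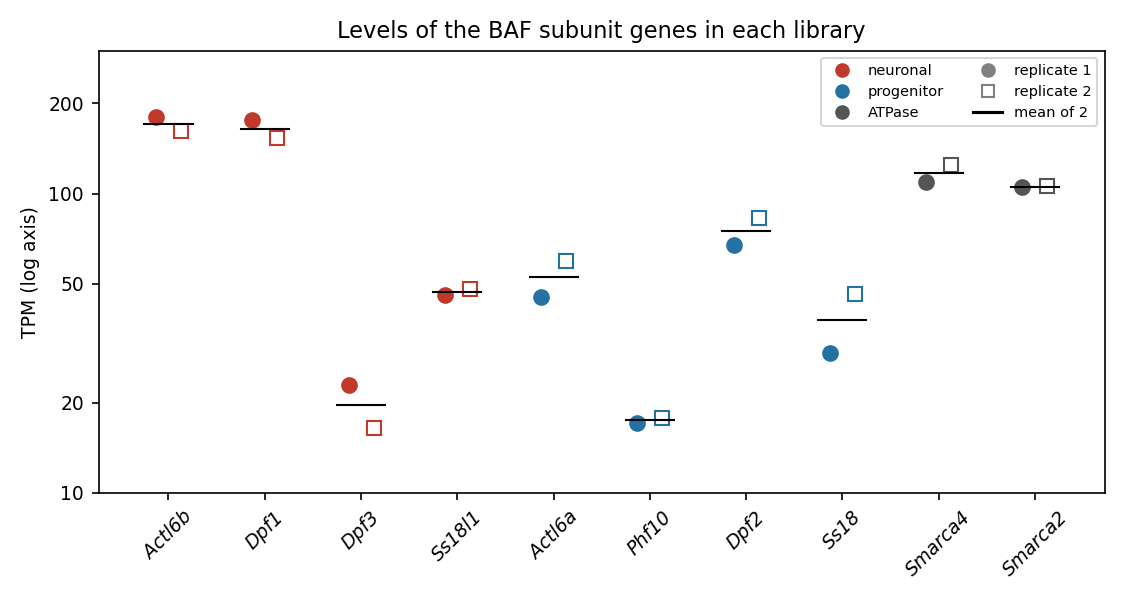
TPM (log axis) of the 10 genes, with filled circles for replicate 1, open squares for replicate 2 and a bar for the mean of the 2 libraries. Actl6b and Dpf1 lie at 152.91 or more in both libraries, above every progenitor gene, of which Dpf2 is highest at 83.04.

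Within each library the neuronal side exceeded the progenitor side, by a margin that differed between families. Actl6b was 3.97 times Actl6a in replicate 1 and 2.71 times in replicate 2, a mean log2 ratio of 1.71 ± 0.39 (SD, n = 2), which is larger than its spread. In the zinc finger family Dpf1 and Dpf3 together had 199.13 TPM against 84.21 for Phf10 and Dpf2 in replicate 1, and 169.33 against 100.80 in replicate 2. These are ratios of 2.36 and 1.68 (log2 0.99 ± 0.35). Dpf1 held 88.5% and 90.3% of the neuronal sum in replicate 1 and replicate 2. Dpf2 held 79.6% and 82.4% of the progenitor sum, with 3.91 times the TPM of Phf10 in replicate 1 and 4.68 times in replicate 2. The SS18 pair did not separate beyond its spread. Ss18l1 was 1.56 times Ss18 in replicate 1 and 1.04 times in replicate 2 (log2 0.35 ± 0.41).

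Summed over the families, the 4 neuronal genes had 424.57 TPM and the 4 progenitor genes 158.80 TPM in replicate 1, against 378.75 and 206.65 TPM in replicate 2. The neuronal side was thus 72.8% of the sum in replicate 1 and 64.7% in replicate 2, and the log2 ratio was 1.15 ± 0.39. Smarca2 was 0.962 times Smarca4 in replicate 1 and 0.85 times in replicate 2 (log2 -0.15 ± 0.13). All 4 neuronal over progenitor ratios were higher in replicate 1, by 1.47 times for the ACTL6 pair, 1.502 times for the SS18 pair, 1.41 times for the zinc finger family and 1.46 times for the sum. These ratios are taken within a library, so no scaling between libraries enters them.

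**Figure D3:**
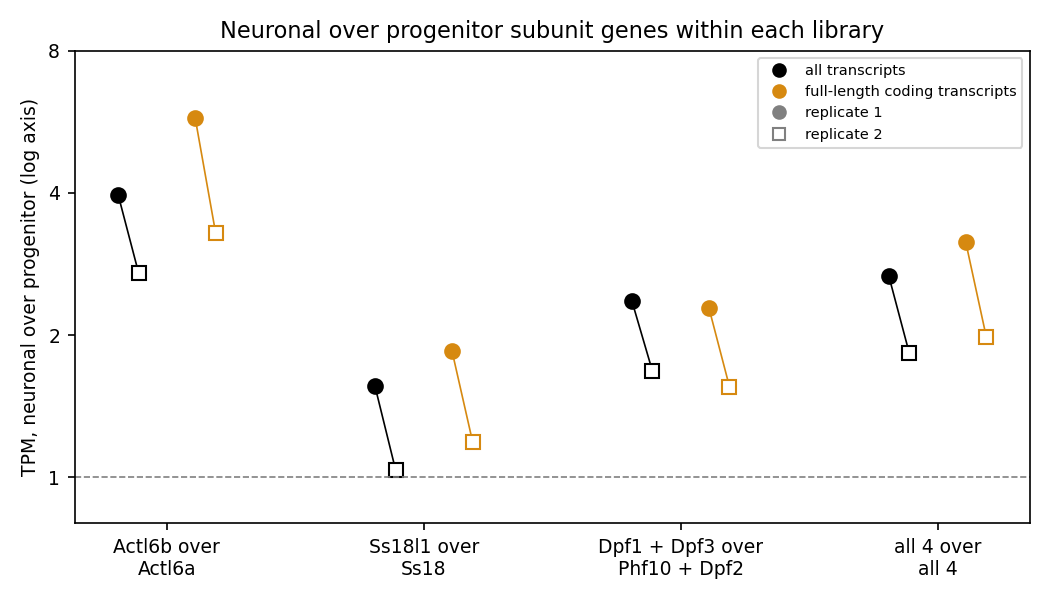
Ratio of neuronal to progenitor TPM (log axis) within each library, for 3 families and their sum, over all transcripts (black) and over full-length coding transcripts (orange). Every point lies above 1, the filled circles of replicate 1 lie above the open squares of replicate 2, and the SS18 pair over all transcripts comes closest to 1, at 1.04 in replicate 2.

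Between the libraries Actl6b, Dpf1 and Dpf3 lay above the median gene and Actl6a, Dpf2 and Ss18 below it, while Ss18l1 and Phf10 lay close to it. The ratio of replicate 1 to replicate 2 was taken on counts scaled by the TMM method, which sets the typical gene to 1, and square brackets give its 95% counting interval. It was above 1 for the 4 neuronal genes, as for 50.4% of the 17623 genes whose mean count reached 10, and below 1 for the 4 progenitor genes, as for 49.6%. Dpf3 stood at 1.60 [1.41 to 1.82], Dpf1 at 1.22 [1.17 to 1.28] and Actl6b at 1.19 [1.14 to 1.25], while the interval of Ss18l1 at 1.02 [0.968 to 1.06] spanned 1. Ss18 stood at 0.684 [0.642 to 0.728], Actl6a at 0.768 [0.714 to 0.826] and Dpf2 at 0.837 [0.792 to 0.885], while that of Phf10 at 0.991 [0.882 to 1.11] spanned 1. Only Dpf3 of the 10 passed 1.5-fold toward replicate 1, as did 8.44% of all genes, and none of the 10 passed it toward replicate 2, as did 10.8%. These calls depend on the scaling. With deposited TPM none passed toward replicate 1, as did 7.3% of all genes, with Dpf3 at 1.39. Ss18 at 0.634 passed toward replicate 2, as did 12.9% of all genes, and Ss18l1 turned to 0.952. Scaling by the added spike-in RNA lowered every log2 ratio by 0.54, which put Actl6b at 0.816, Dpf1 at 0.839 and Ss18l1 at 0.696, below 1, and left Dpf3 at 1.097. None of the 10 then passed 1.5-fold toward replicate 1, as did 2.36% of all genes. Toward replicate 2, 4 passed, as did 44.1% of all genes, namely Ss18 (0.469), Actl6a (0.526), Dpf2 (0.574) and Smarca4 (0.641). The distance between the neuronal and progenitor genes is the same under TMM and spike-in scaling by construction, since each applies 1 factor per library to every gene.

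Marker lists were read on the same TMM scale, where 49.6% of all genes were below 1, 10.8% passed 1.5-fold toward replicate 2 and the median was 1.00. Of 12 cell cycle genes 11 had a ratio below 1, with a list median of 0.709, and 3 passed 1.5-fold toward replicate 2. Of 14 progenitor markers 9 were below 1, with a median of 0.903, and 1 passed. Of 15 neuron markers 11 were above 1, as were 50.4% of all genes, with a median of 1.12, and none passed in either direction. With spike-in scaling every gene of these 3 lists was below 1, as were 90.3% of all genes. The meninges, ganglion, Schwann cell, endothelial and microglia lists were lower in replicate 1 as well, with medians of 0.0565, 0.0324, 0.235, 0.475 and 0.646, and skeletal muscle and erythroid lists were higher, at 2.13 and 1.22. Among the ganglion markers Calca went the other way, at 1.49, with 22.45 TPM in replicate 1 and 16.15 TPM in replicate 2. The part of the listed cell types in the difference between the libraries was not tested. Smarca4 at 0.935 [0.911 to 0.96] and Smarca2 at 1.05 [1.01 to 1.09] stayed near the median gene.

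**Figure D4:**
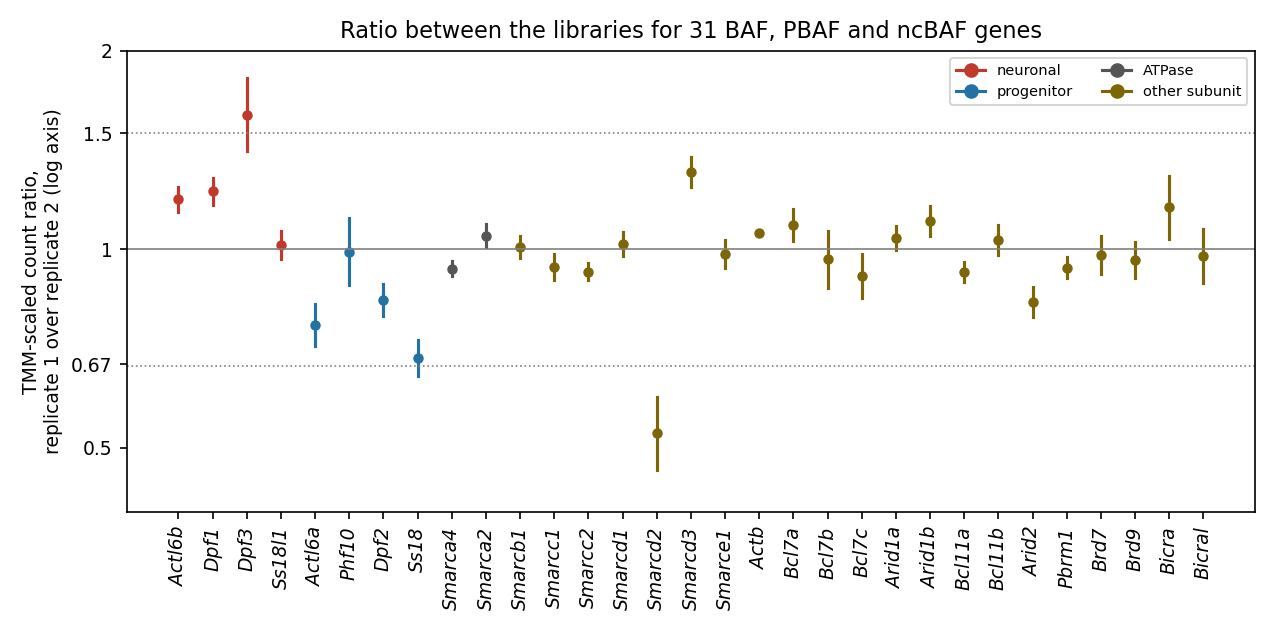
Ratio of replicate 1 to replicate 2 (TMM-scaled counts, log axis) with 95% counting intervals for the 10 genes and 21 other subunit genes, with dotted lines at 1.5-fold. Dpf3 lies above the upper line at 1.60 and Smarcd2 below the lower line at 0.527, and the other genes lie between the lines, before spike-in scaling.

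The transcripts behind these levels differed in kind. Total RNA holds unspliced and decay-bound RNA as well as messenger RNA, and the deposited estimates divide each gene's reads over its annotated transcripts. A transcript is called full-length here when it is annotated as protein-coding with at least 90% of the gene's longest coding length. Such transcripts held 87.2% of Actl6b TPM in replicate 1 and 86.5% in replicate 2, and 98.7% and 97.2% of Smarca4. Ss18l1 had a single annotated transcript. Ss18 had 84.3% and 87.3%, Dpf2 62.1% and 60.1%, Actl6a 60.0% and 71.2%, and Dpf1 53.4% and 51.5%. In 3 of the 9 genes with several transcripts the share was under 50% in both libraries, as in 23.6% of 6386 protein-coding genes with several transcripts and at least 10 TPM.

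Those 3 were Phf10, Smarca2 and Dpf3. In Phf10 the coding transcript Phf10-201 held 24.0% in replicate 1 and 30.3% in replicate 2, or 4.11 and 5.38 TPM. The rest lay in the decay-annotated Phf10-203 (35.59% and 35.64%) and in retained introns, of which Phf10-204 held 25.99% and 20.15%. In Smarca2 the full-length Smarca2-201 held 31.51% and 31.12%, and Smarca2-215, a decay-annotated transcript of the 3′ part of the gene, held 34.49% and 32.71%, with a length in the deposited files of 1460 bases against 2018 in the annotation used here. The 5 transcripts that start at the internal cluster of starts between 26748251 and 26748427 on chromosome 19, whose coding parts are short, summed to 3.36 TPM in replicate 1 and 4.24 TPM in replicate 2. Other short coding models start just downstream, among them Smarca2-205 with 6.36 and 6.85 TPM and Smarca2-207 with 18.35 and 16.00 TPM. In Dpf3 the reads were spread over Dpf3-202 (25.87% and 30.14%), a partial model, Dpf3-207 (29.96% and 25.34%), Dpf3-203 (16.83% and 24.52%) and others. Dpf3 shares therefore rest on 723 counts in replicate 1 and 356 in replicate 2, spread over 7 annotated transcripts.

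**Figure D5:**
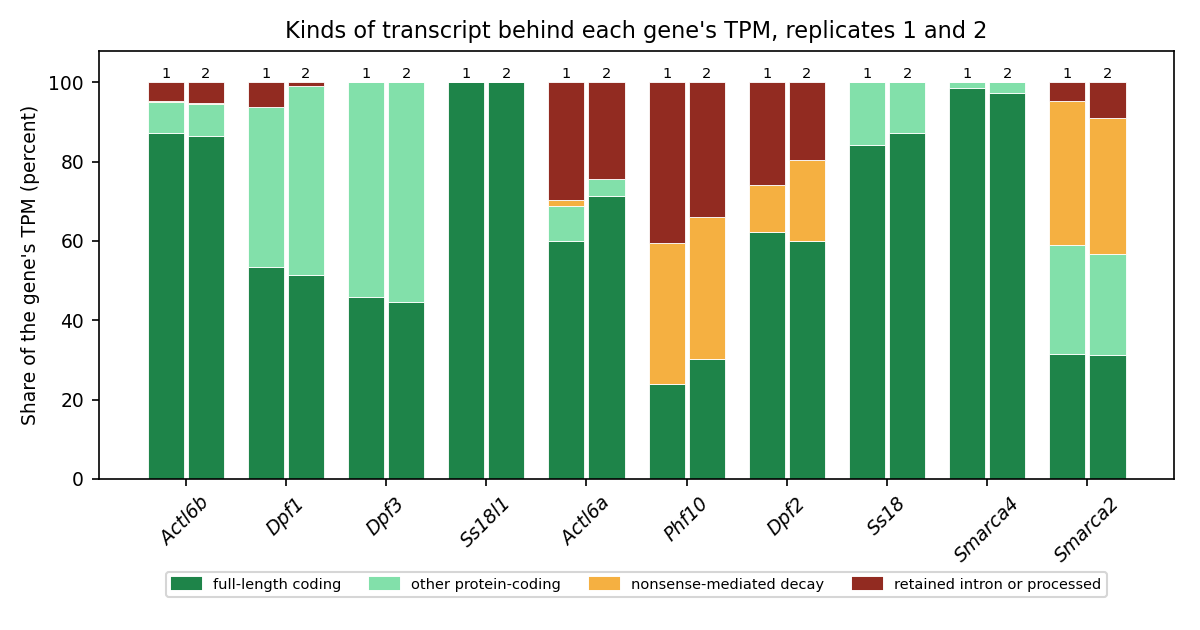
Share of each gene's TPM (percent) in full-length coding, other coding, decay-annotated and retained-intron or processed transcripts, with replicate 1 on the left of each pair of bars and replicate 2 on the right. Full-length coding transcripts hold 24.0% and 30.3% of Phf10 and 31.5% and 31.2% of Smarca2, against 98.7% and 97.2% of Smarca4.

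Counting full-length coding transcripts alone kept the direction of every family ratio and parted the ATPases. Actl6b was then 5.77 times Actl6a in replicate 1 and 3.29 times in replicate 2, with the intron-retaining Actl6a-207 (24.62% and 16.24% of Actl6a) set aside. Ss18l1 was 1.85 and 1.19 times Ss18, Dpf1 with Dpf3 2.29 and 1.56 times Phf10 with Dpf2, and the 4 neuronal genes 3.14 and 1.98 times the 4 progenitor genes. Smarca2 had 33.06 TPM against 107.69 TPM for Smarca4 in replicate 1, and 33.00 against 121.09 in replicate 2, ratios of 0.307 and 0.273. The near equality of the ATPase genes in summed TPM was therefore not present among full-length transcripts.

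Coding transcripts of Dpf2, Dpf1 and Smarca4 differ by short in-frame stretches, shown here because the libraries held the alternatives at very unequal levels. Only these 3 members were compared in this way, and others may hold such alternatives too. Capitals mark the stretch that only one form carries, with 15 bases of each flank, 5′ to 3′ on the transcript, from the GENCODE transcripts for GRCm38.
Dpf2-202, with the 42-base exon at chr19:5903731-5903772 (minus strand): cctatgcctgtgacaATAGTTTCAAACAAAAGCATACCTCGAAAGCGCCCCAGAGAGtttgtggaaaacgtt
Dpf2-205, without it: cctatgcctgtgacatttgtggaaaacgtt
Dpf1-204, with the 30-base stretch at chr7:29316214-29316243 (plus strand): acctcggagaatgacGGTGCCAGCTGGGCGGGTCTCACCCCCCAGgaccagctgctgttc
Dpf1-201, without it: acctcggagaatgacgaccagctgctgttc
Smarca4-202, with the 9-base stretch at chr9:21686013-21686021 (plus strand): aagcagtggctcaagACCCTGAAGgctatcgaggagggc
Smarca4-204, without it: aagcagtggctcaaggctatcgaggagggc

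In Dpf2 the form with the added exon was the main one. Transcripts with the exon had 39.44 TPM in replicate 1 and 47.13 TPM in replicate 2, against 10.36 and 19.65 TPM for those that skip it. The exon was thus in 79.2% and 70.6% of the TPM that spans it (74.9% ± 6.1, n = 2). Of the skipping transcripts Dpf2-205 alone codes for the whole protein (2.24 and 2.75 TPM), and Dpf2-201 (12.11% and 20.35% of the gene) is annotated for decay. In Dpf1 the reverse held. The 30-base stretch was in 6.5% of the spanning TPM in replicate 1 and 8.22% in replicate 2, and Dpf1-201, which lacks it, led the gene with 37.95% and 40.9%. Dpf1-209, a partial coding model, held 20.48% and 24.34%. In Smarca4 the 9-base stretch was in 28.0% and 31.4%, and Smarca4-204, without it, led with 71.97% and 68.56%, ahead of Smarca4-202 with 26.76% and 28.68%. Smarca4-202 and Smarca4-204 also differ by 3 coding bases at chr9:21699800-21699802. Those bases were in 27.1% of the spanning TPM in replicate 1 and 29.5% in replicate 2. The forms compared also differ at their ends, so the estimates do not rest on the stretches shown alone.

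Among the 7 transcripts of Actl6b, Actl6b-205 led with 87.22% and 86.46%. Ss18 was led by Ss18-203, with 64.64% of its TPM in replicate 1 and 69.15% in replicate 2. Its coding length is 1161 bases, against 1254 in Ss18-201, which held 19.67% and 18.12%. Actl6a was led by Actl6a-201, with 59.99% and 71.23%.

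The exchange of Actl6a for Actl6b is known to involve 2 microRNAs, miR-9* (miR-9-3p) and miR-124, which act on the Actl6a 3′ end in neurons. Mature microRNAs are too short for these libraries of long RNA, but long host transcripts of some of their hairpins were measured. The 4 taken here do not cover every hairpin, and none was for Mir9-1. Mir9-3hg, around the Mir9-3 hairpin, had 64.79 TPM in replicate 1 and 59.51 TPM in replicate 2. C130071C03Rik, around Mir9-2, had 52.05 and 51.50 TPM. Mir124-2hg had 96.71 and 99.19 TPM and Mir124a-1hg 53.98 and 50.74 TPM. All 4 host genes were thus at a level like that of Actl6a itself or above. On the TMM scale none passed 1.5-fold between the libraries, while 19.2% of all genes did in either direction. With spike-in scaling all 4 had a ratio below 1, as did 90.3% of all genes, and none passed 1.5-fold.

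The arms of miR-9 are shown with the seed, bases 2 to 8, in capitals (RefSeq, GRCm38.p6), because the seed of the 3p arm has a match in Actl6a.
mmu-miR-9-3p, the same from the hairpins on chromosomes 3, 7 and 13: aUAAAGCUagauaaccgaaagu
mmu-miR-9-5p, from the same hairpins: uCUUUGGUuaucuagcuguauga
Actl6a-201, 22 bases of the 3′ UTR around the match at chr3:32726640-32726646 (plus strand), match in capitals: acctcaacgtctgtAGCTTTAg
The match, AGCTTTA on the transcript strand, begins 38 bases after the stop codon in a 3′ UTR of 371 bases. It is present in 2.59% of 927 mouse 3′ UTRs within 10% of that length. Among the other 9 members only Smarca2 held it, as do 6.81% of 3′ UTRs of like length. None of the 10 held the 5p match, ACCAAAG, which 0.731% to 23.2% of 3′ UTRs of like length hold. Only the 3′ UTR of the transcript with the longest coding part was searched. For some members that transcript was scarce, as with Smarca2-209 (0.0 and 0.07 TPM) and Dpf1-204 (1.52 and 1.04 TPM), and other 3′ ends were not searched. A match of letters is a description and shows no binding. Matches to miR-124 were not searched for.

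The listed genes for the rest of the complex were expressed in both libraries. All 21 other subunit genes of the BAF, PBAF and ncBAF forms passed 1 TPM in both libraries, as did 13047 of 21474 protein-coding gene rows. Their median was 38.11 TPM in replicate 1 and 41.81 TPM in replicate 2 (40.0 ± 2.62). Of the 11 core genes Actb, the actin of the complex and of the cytoskeleton, was highest at 5709 and 5745 TPM, a level that near-identical copies make uncertain, followed by Smarcb1 at 193.94 and 207.64 TPM. Among the DNA-binding subunits of canonical BAF, Bcl11a led with 114.24 and 117.07 TPM, ahead of Arid1a with 36.08 and 33.16, and Arid1b was lowest at 17.58 and 16.45. Of the 3 PBAF genes Pbrm1 was highest (73.50 and 84.31) and Arid2 lowest (21.45 and 26.25), with Brd7 at 50.71 and 55.10. Of the 3 ncBAF genes Brd9 was highest (46.65 and 51.69), and Bicral (7.78 and 8.48) and Bicra (7.56 and 6.96) were lowest.

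Of these 21 genes 9 had a ratio of replicate 1 to replicate 2 above 1 and 12 below, against 50.4% and 49.6% of all genes, with a median of 0.979. None passed 1.5-fold toward replicate 1, as did 8.44% of all genes, and 1, Smarcd2, passed it toward replicate 2, as did 10.8%. Smarcd2 encodes 1 of 3 exchangeable core subunits and was the lowest core gene, at 8.19 TPM in replicate 1 and 17.57 TPM in replicate 2, with a ratio of 0.527 [0.463 to 0.598]. Its relatives stood elsewhere. Smarcd3, a form known from muscle and neurons, had 135.80 and 111.96 TPM and the highest ratio of the 21, at 1.31 [1.24 to 1.38], and Smarcd1 had 85.26 and 89.20 TPM with a ratio of 1.02 [0.978 to 1.06]. Under spike-in scaling the ratio of Smarcd3, like those of Actl6b and Dpf1, falls below 1, to 0.897.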

How the data were processed

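Total RNA from 2 libraries of 1 group was extracted with a mirVana kit, per the labels, and quantified on mm10 and GENCODE release 4, as the deposited texts state. For the aligner, quantifier and strand, names were not given in the sources used here. Expected counts were deposited unnormalised, as estimated reads, and were rounded here to whole numbers. TPM and FPKM were scaled by the authors per library, spike-ins included, and the percent column holds the share of a gene in each transcript, per the file headers. Posterior spreads and bounds, deposited as score columns, were not used. Spike-ins took 3.31% of counts in replicate 1 and 2.29% in replicate 2, and were left out of library sizes, as were 26248 rows of numeric identifiers, which held 3.597e-05% and 5.379e-05% of counts. The labels name separate pups, so the spread covers these animals and handling together.

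Symbols, coordinates and transcript types came from GENCODE release 21 for GRCm38 by identifier without version (42462 of 43346 gene rows matched). Gene members and all 19 lists were chosen with earlier results of these data known. Named genes were the 10 members, the extremes of each list and transcripts with 20% or more in a library. Ratios between libraries used TMM (edgeR 4.0.16 under R 4.3.3; prior count 0.5) and exact Clopper-Pearson 95% intervals, which cover counting error only, since amplified reads are not independent molecules. DESeq2 1.42.0 size factors were an alternative. On simulated counts for this comparison (17629 genes), genes changed 2-fold had a median of 1.05 on the log2 scale, and genes changed 4-fold 1.88. The simulation held no general shift between the libraries, so it does not bear on the choice between TMM and spike-in scaling. Other steps used Python 3.11.15, pandas 2.3.3, SciPy 1.17.1 and matplotlib 3.10.9.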

Additional observations from a re-analysis of the deposited data

How the results depend on the processing

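No paired analysis was possible because there is 1 group. With 2 libraries the spread rests on a single difference, transcript estimates depend on the annotation used, and ratios between libraries depend on their scaling. For the neuronal over progenitor ratios, 22 alternatives were neither FPKM nor a left-out library. Of these 18 stayed within the SD, 4 moved and 0 reversed. Many of the 18 had little room to move, so their number is no measure of stability. Pseudocounts of 0.1 and 1 TPM are small beside these levels, and left the ACTL6 log2 ratio at 1.71 and 1.69. Both genes of the SS18 pair have coding transcripts only, so that setting could not change its ratio. The other 12 (FPKM, and leaving out either of 2 libraries) lie within the SD by construction. With protein-coding transcripts alone the mean log2 ratio was 2.11 for the ACTL6 pair, 1.82 for the zinc finger family, 1.63 for the sum and -0.93 for Smarca2 over Smarca4. With full-length coding transcripts, chosen after seeing the data, it was 2.12 for the ACTL6 pair and -1.79 for the ATPases. Leaving out 1 library gave 1.44 to 1.99 for the ACTL6 pair, 0.06 to 0.64 for the SS18 pair, 0.75 to 1.24 for the zinc finger family, 0.87 to 1.42 for the sum, -0.23 to -0.06 for the ATPases and 38.11 to 41.81 TPM for the median of the other subunits, which was 23.6 in FPKM, another unit. Between the libraries, spike-in scaling turned the log2 ratio of Actl6b to -0.29, of Dpf1 to -0.25 and of Smarca2 to -0.48, and deposited TPM turned Smarca2 to -0.012 and Ss18l1 to -0.07. Genes past 1.5-fold numbered 1488 toward replicate 1 and 1900 toward replicate 2. They were 416 and 7770 with spike-in scaling, 4607 and 4389 with no filter and 429 and 862 at a mean count of at least 100.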

Other observations

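REST is a repressor that keeps neuronal genes, among them those of the microRNAs above, silent outside neurons. As a list, Rest and its partner genes had a lower median than the 21 other subunit genes above (38.11 TPM in replicate 1 and 41.81 in replicate 2). Rcor3 lay above that median in replicate 1 and below it in replicate 2. All 8 genes of this list passed 1 TPM in both libraries, as did 13047 of 21474 protein-coding gene rows. The list median was 9.29 TPM in replicate 1 and 12.1 TPM in replicate 2. Rest itself had 4.12 and 6.60 TPM, the lowest mean of the list, and Rcor3 (45.15 and 39.19) and Sin3a (20.95 and 28.81) were highest. The ratio of replicate 1 to replicate 2 (TMM) was below 1 for 6 of the 8, against 49.6% of all genes. Of the 8, Rest at 0.665 [0.594 to 0.744] and Ctdsp2 at 0.554 [0.511 to 0.6] passed 1.5-fold toward replicate 2, as did 10.8% of all genes. Rest only just passed, with an interval that spans the cut, and Ctdsp1 at 0.669 just missed it. With deposited TPM 3 of the 8 passed, as did 12.9% of all genes. With spike-in scaling 6 passed, as did 44.1%. Rest is also expressed in cells around the tube. The meninges, ganglion, Schwann cell, endothelial and microglia lists were higher in the same library, while the skeletal muscle and erythroid lists were lower there. Of the cell cycle genes 11 had a ratio below 1 and 1 above, with a median of 0.709. Of the progenitor markers 9 had a ratio below 1 and 5 above, with a median of 0.903. The part of any of these cell types, progenitors included, in the Rest ratio was not tested.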
